A study of Mus musculus with 31 samples.

Results

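The 10 genes described here are *Htr1a*, *Htr1b*, *Htr1d*, *Htr1f*, *Htr2a*, *Htr2c*, *Htr4*, *Htr5a*, *Htr6* and *Htr7*. They code for G-protein coupled serotonin receptors and were measured in the caudate putamen (CPu) of female mice. They were chosen by gene family, by symbol, from the 52636 genes of the table, with 34905 of these detected (a value over 0) somewhere among the mice. The other 4 serotonin receptor genes, *Htr2b*, *Htr3a*, *Htr3b* and *Htr5b*, are given beside them. All 10 genes were above 0.1 TPM in all 31 mice, so all 10 passed the filter on low values in every comparison. TPM, a length-normalised transcript abundance, divides the reads of a gene by its length and scales each mouse to a fixed sum, so levels of different genes can be set side by side.

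CPu, the dorsal striatum, was punched on the right side from frozen 1 mm coronal sections, and each mouse was sequenced on its own. The groups were 8 WT mice and 7 *Brd1*+/- mice administered saline vehicle, and 8 WT mice and 8 *Brd1*+/- mice administered imipramine (IMN) at 10 mg/kg. All were labelled as females of the C57BL/6NTac-Brd1 line, 8 to 11 weeks old. *Brd1*+/- mice carry 1 targeted allele of *Brd1*, which codes for a bromodomain protein of histone acetyltransferase complexes, in all cells of the body. IMN, a tricyclic antidepressant, blocks the reuptake of serotonin and noradrenaline. All mice, vehicle administered ones included, were injected on 2 days, went through tail suspension, open field and forced swim tests, and were killed 1 h after the forced swim. *Brd1* itself had a mean of 22.5 TPM (SD 2.97) in WT vehicle against 13.4 TPM (SD 2.02) in *Brd1*+/- vehicle mice, and of 19.9 TPM (SD 2.67) in WT IMN against 12.8 TPM (SD 1.04) in *Brd1*+/- IMN mice, with no overlap between the genotypes within a treatment.

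Serotonin reaches the striatum through axons from the raphe nuclei, whose cell bodies lie in the brain stem. Its G-protein coupled receptors fall into classes by the G-protein they use. The 5-HT1 receptors and 5-HT5A couple to Gi/o and lower cAMP, 5-HT2A and 5-HT2C couple to Gq/11 and raise inositol phosphates and calcium, and 5-HT4, 5-HT6 and 5-HT7 couple to Gs and raise cAMP. Striatal projection neurons are known for 5-HT1B on their axon terminals and for 5-HT2C, 5-HT4 and 5-HT6, whereas 5-HT1A is known from cortical and hippocampal neurons and, as an autoreceptor, from raphe neurons.

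The groups were not alike in markers of the tissue in the punch. Summed over 10 genes, cortical excitatory neuron markers ranged from 12.1 to 1881 TPM (median 1313) in WT vehicle mice, against 19.1 to 229 TPM in *Brd1*+/- vehicle, 11.0 to 1067 TPM in WT IMN and 14.6 to 372 TPM in *Brd1*+/- IMN mice. The sum of 10 markers of striatal projection neurons ranged from 276 to 10474 TPM in WT vehicle mice and from 5050 to 9819 TPM in the other groups. WT vehicle mice 1, 2, 4 and 5 were under 50% of the median striatal sum over all mice, and 0 mice of the other groups were. None of the 10 striatal markers was at 0 in any mouse, and up to 2 of the 10 cortical markers were at 0 in some mouse of a group. WT vehicle mouse 7 had 26.8 TPM over 4 Y-linked genes, where no other mouse exceeded 0.188 TPM, which goes against its label as a female. In bulk tissue, fewer cells of a type and less RNA per cell cannot be told apart. The receptor genes called in a comparison with WT vehicle mice are therefore given also without the 4 mice low in striatal markers, and with the cortical or the striatal marker score (the mean log2(TPM + 1) of each list) as a covariate.

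The stretches upstream of 4 of the genes are shown because these 4 had the smallest p-values in the comparison of the vehicle groups described further on. RefSeq (GRCm38.p6) listed starts for 9 of the 10 genes, 11 starts in all, and not for *Htr4*. Each stretch runs from 250 to 55 bases before the RefSeq start, 196 bases, read 5′ to 3′ on the strand of the gene, and ends upstream of the start in either annotation. They lie at chr13:105443443-105443638 on the forward strand (*Htr1a*), chr5:27841697-27841892 on the forward strand (*Htr5a*), chr9:81633887-81634082 on the reverse strand (*Htr1b*) and chr4:136423274-136423469 on the forward strand (*Htr1d*, the first of its 2 starts). Capitals mark matches to the pattern CANNTG, an E-box, where N is any base. A match on 1 strand is also a match on the other.
Htr1a: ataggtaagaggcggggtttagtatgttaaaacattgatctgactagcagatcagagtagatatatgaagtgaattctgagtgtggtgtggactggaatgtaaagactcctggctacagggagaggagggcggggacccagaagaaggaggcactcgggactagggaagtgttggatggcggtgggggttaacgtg
Htr5a: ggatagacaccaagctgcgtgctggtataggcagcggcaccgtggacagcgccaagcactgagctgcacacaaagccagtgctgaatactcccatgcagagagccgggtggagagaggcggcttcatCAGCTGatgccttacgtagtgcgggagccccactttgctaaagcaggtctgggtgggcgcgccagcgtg
Htr1b: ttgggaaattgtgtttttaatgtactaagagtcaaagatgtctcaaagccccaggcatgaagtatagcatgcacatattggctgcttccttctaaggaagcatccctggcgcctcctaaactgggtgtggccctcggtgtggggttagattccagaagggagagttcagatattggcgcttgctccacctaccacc
Htr1d: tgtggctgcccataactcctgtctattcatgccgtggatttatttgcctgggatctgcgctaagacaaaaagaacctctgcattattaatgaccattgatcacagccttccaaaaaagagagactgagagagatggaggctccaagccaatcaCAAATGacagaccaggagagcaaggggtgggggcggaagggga
The *Htr5a* and *Htr1d* stretches held 1 E-box each and those of *Htr1a* and *Htr1b* held 0, where 58.4% of the 32851 stretches of this length in the RefSeq table held at least 1. GGGCGG, a GC box, in either orientation, occurred once in *Htr1a* and once in *Htr1d* and in 23.9% of all stretches. TGACG, the core of a cAMP response element, in either orientation, was in none of the 4 and in 12.3% of all stretches. GC content was 50% for *Htr1a*, 61.2% for *Htr5a*, 48.98% for *Htr1b* and 48.98% for *Htr1d*, against a median of 51.5%. A match of letters is a description and not a site.

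*Htr1b* had the highest median over all 31 mice, 43.3 TPM, followed by *Htr2c* at 20.6 TPM, *Htr2a* at 10.6 TPM and *Htr6* at 7.58 TPM. *Htr1d* (4.36 TPM) and *Htr5a* (2.67 TPM) came next. The medians of *Htr7* (1.15 TPM), *Htr1f* (1.10 TPM), *Htr1a* (0.873 TPM) and *Htr4* (0.484 TPM) were lowest. In a permutation test that flips the sign of the difference between neighbours in each mouse (100000 resamples, two-sided), 6 of the 9 neighbour pairs were separated. *Htr1b* lay above *Htr2c* in 29 of 31 mice (adjusted p = 9e-05) and *Htr2c* above *Htr2a* in 27 of 31 mice (adjusted p = 9e-05). The pairs that did not differ beyond their spread were *Htr1d* and *Htr5a* (adjusted p = 0.452), *Htr7* and *Htr1f* (adjusted p = 0.656) and *Htr1f* and *Htr1a* (adjusted p = 0.578). Without the 4 WT vehicle mice low in striatal markers 8 of the 9 pairs were separated, *Htr1d* and *Htr5a* (adjusted p = 0.007) and *Htr1f* and *Htr1a* (adjusted p = 0.00452) among them, and *Htr7* and *Htr1f* (adjusted p = 0.187) were not. *Htr1b* had rank 1 and *Htr2c* rank 2 by median in all 4 groups. *Htr1d* moved most in rank, from rank 3 in *Brd1*+/- vehicle mice and rank 5 in both IMN groups to rank 8 in WT vehicle mice, and within WT vehicle mice none of the 9 neighbour pairs was separated (exact sign-flip test, smallest adjusted p = 0.0703).

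**Figure D1:**
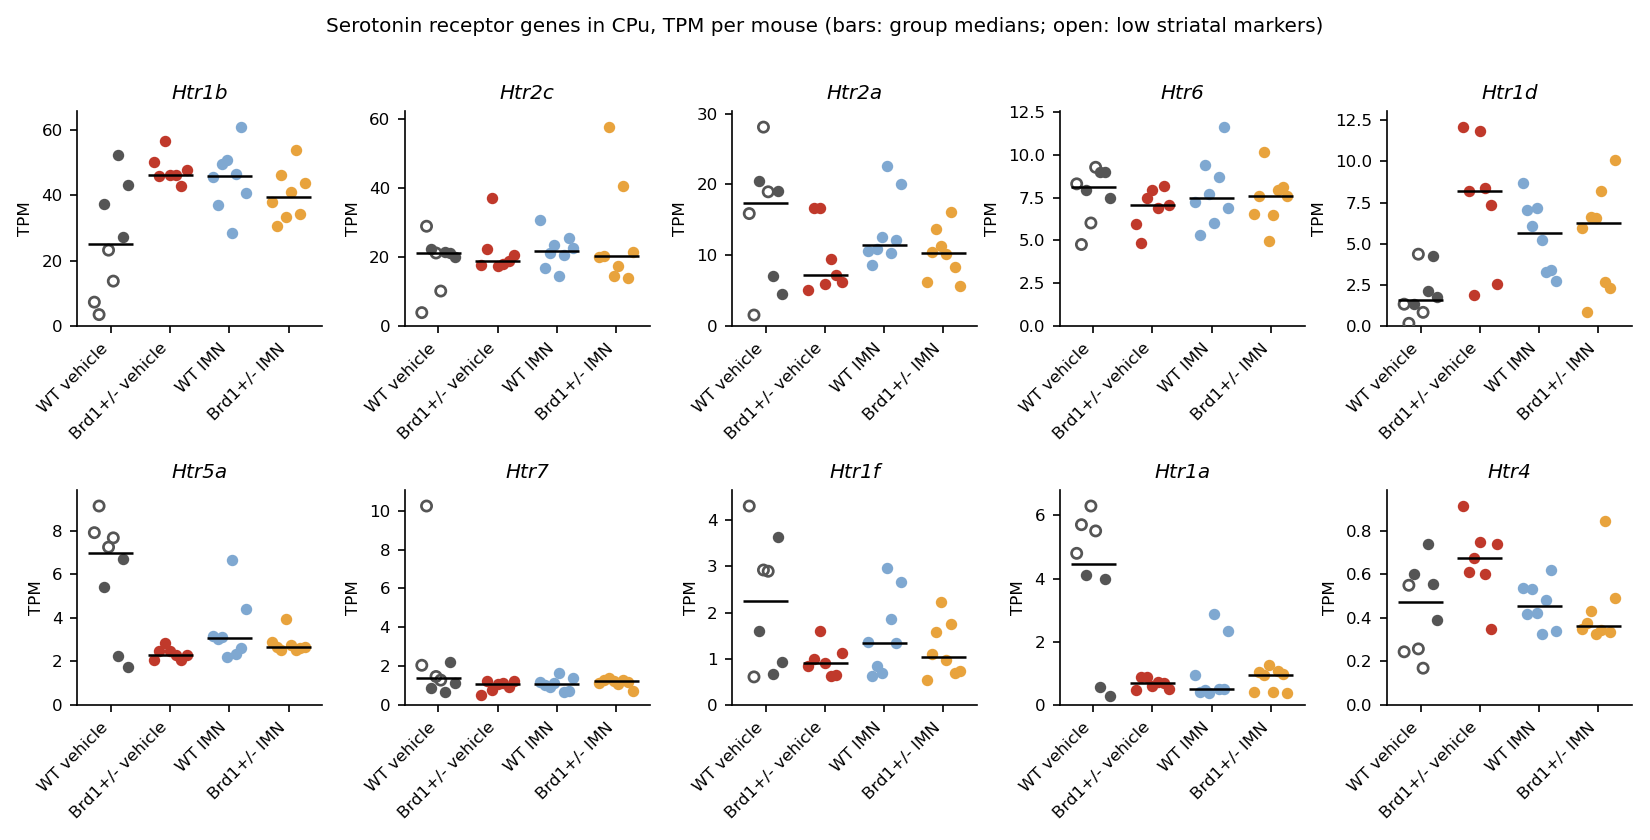
TPM of each serotonin receptor gene in each mouse, ordered by median over all mice, with 1 panel per gene and its own linear axis from 0. Points are mice, bars are group medians, and open points are the 4 WT vehicle mice low in striatal markers. *Htr1a* and *Htr5a* are high in 6 of 8 WT vehicle mice, *Htr1b* is low in the open points, and the median of *Htr1d* is lowest in WT vehicle mice, at 1.56 TPM.

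The other 4 serotonin receptor genes were low. *Htr3a*, a subunit of the receptor that is an ion channel, had a median of 0.88 TPM over all mice, and *Htr2b* had a median of 0.0886 TPM. *Htr3b* was listed at 0 in all 31 mice and *Htr5b* in 19 of them. Among genes that make, move and break down serotonin, *Slc6a4* (the serotonin transporter that IMN blocks) was listed at 0 in 30 of 31 mice and *Fev*, a transcription factor of serotonin neurons, in all 31. *Tph2*, the neuronal enzyme that starts serotonin synthesis, had a median of 0.353 TPM and *Tph1*, its peripheral form, was listed at 0 in 19 mice. *Maoa* and *Maob*, which break down monoamines, had medians of 9.97 TPM and 16.2 TPM. Those of *Ddc* (aromatic amino acid decarboxylase), *Slc18a2* (the vesicular monoamine transporter), *Slc22a3* and *Slc29a4* (low-affinity monoamine transporters) lay between 2.78 and 5.41 TPM.

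The first comparison asks whether reduced *Brd1* expression goes with a difference in receptor expression in vehicle administered mice. *Htr1d* was higher, and *Htr1a* and *Htr5a* were lower, in *Brd1*+/- than in WT mice. Differences were called at the nominal threshold of the study, a two-sided p under 0.01, in limma on log2(TPM + 1). A share of 13.6% of all 23200 genes tested was called in this comparison (12.1% lower and 1.47% higher in *Brd1*+/- mice), and 3 of the 10 receptor genes were. None of the 10 passed an FDR of 5%, as was true of all genes tested (limma). That count depended on the fit. *Htr1a*, *Htr1d* and *Htr5a* passed it among genes with a mean of at least 1 TPM (10.5% of all genes did), and these 3 with *Htr1b* passed with the replicate block (15.4%) or with all 4 groups in 1 fit (21.7%). With sample weights *Htr1f* passed too (29.5%), and with either marker score or without the 4 mice none of the 10 did. Of the 10, 6 had a p under 0.05 (30.9% of all genes), and 4 passed an FDR of 10% (20.2% of all genes). The median log2 fold change of the 10 was −0.23, and that of all genes was −0.13. Median-of-ratios scaling, which moved the median of all genes to 0.00, left *Htr1a* at −1.19, *Htr5a* at −0.78 and *Htr1d* at 1.59, and took *Htr1b* past the threshold at 1.42.

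*Htr1a* (chr13:105443639-105448122 in GRCm38, as all gene positions here from GENCODE, forward strand, a single exon) ranged from 0.292 to 6.29 TPM (median 4.46) in WT and from 0.476 to 0.887 TPM (median 0.710) in *Brd1*+/- mice under vehicle. In WT, 6 mice, at 3.99 TPM or more, lay above all *Brd1*+/- mice, and WT mice 6 and 8, at 0.555 and 0.292 TPM, did not. The mean in *Brd1*+/- mice was 0.175 of the WT mean. The log2 fold change was −1.32 (SE 0.35, adjusted p = 0.0556, limma), with an exact permutation p of 0.0106. It was −0.48 with the cortical score as a covariate, where it was still called, and −0.80 with the striatal score and −0.67 without the 4 mice low in striatal markers, where it was not.

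*Htr5a* (chr5:27842149-27855088, forward strand, 2 exons) showed the same division of the WT mice. Levels ran from 1.74 to 9.13 TPM (median 6.97) in WT and from 2.06 to 2.85 TPM (median 2.29) in *Brd1*+/- mice under vehicle, with 6 WT mice above and WT mouse 8 below all *Brd1*+/- mice. The log2 fold change was −0.93 (SE 0.26, adjusted p = 0.0556, limma) and the exact permutation p was 0.0106. With the cortical score as a covariate it was −0.33 and still called. The call was lost with the striatal score, at −0.49, and without the 4 mice, at −0.45.

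*Htr1d* (chr4:136423524-136444398, forward strand, 4 exonic blocks) codes for a receptor close to 5-HT1B. WT vehicle mice 1 to 8 had 1.33, 0.164, 1.36, 4.36, 0.831, 2.12, 4.24 and 1.76 TPM, and *Brd1*+/- vehicle mice 1 to 7 had 12.1, 8.22, 1.88, 11.9, 8.38, 7.37 and 2.53 TPM. Of the *Brd1*+/- mice, 5 lay above all WT mice, and *Brd1*+/- mice 3 and 7 lay within the WT range. The mean was 3.70 times the WT mean. The log2 fold change was 1.46 (SE 0.38, adjusted p = 0.0556, limma), with an exact permutation p of 0.00591. It was 1.34 with the cortical score, 1.06 with the striatal score and 1.21 without the 4 mice, and it was called in none of these fits.

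*Htr1b* (chr9:81628291-81633828, reverse strand, 2 exonic blocks) did not pass the threshold. Under vehicle it ranged from 3.50 to 52.5 TPM (median 25.3) in WT and from 43.0 to 56.7 TPM (median 46.4) in *Brd1*+/- mice. The 4 WT mice low in striatal markers had 7.31, 3.50, 23.2 and 13.8 TPM, below every other mouse of the study, and WT mice 3, 6, 7 and 8 had 37.3, 52.5, 27.3 and 43.3 TPM. The log2 fold change was 1.24 (SE 0.43, adjusted p = 0.0779, limma), and it was 0.29 without the 4 mice and 0.21 with the striatal score. The exact permutation p was 0.00591 and was over 0.01 without the 4 mice, as for all 10 genes. An exon of *Htr1b* overlaps *D430036J16Rik* on the opposite strand (median 12.3 TPM), and the sources used here do not say whether the reads kept their strand, so reads of the pair may not be told apart.

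The remaining Gi/o-coupled receptor gene, *Htr1f* (chr16:64924729-65105854, reverse strand), ranged from 0.607 to 4.31 TPM (median 2.25) in WT and from 0.628 to 1.60 TPM (median 0.903) in *Brd1*+/- mice. Its log2 fold change was −0.58 (adjusted p = 0.135, limma). The Gq/11-coupled receptor genes among the 10 did not differ beyond the spread between mice. *Htr2a* (chr14:74640840-74709494, forward strand) had medians of 17.4 TPM in WT and 7.22 TPM in *Brd1*+/- mice, with a log2 fold change of −0.33 and a 95% interval from −1.31 to 0.66. *Htr2c* (chrX:146962513-147197277, forward strand) had medians of 21.3 and 19.0 TPM, with a log2 fold change of 0.33 and an interval from −0.34 to 1.00. Of the Gs-coupled receptor genes, *Htr4* had medians of 0.471 and 0.673 TPM and a log2 fold change of 0.21 (adjusted p = 0.146, limma). *Htr6* (chr4:139061108-139075570, reverse strand) had the lowest coefficient of variation of the 10 over all mice, with a mean of 7.73 TPM in WT (SD 1.59) against 6.91 TPM in *Brd1*+/- mice (SD 1.17), and an interval of the log2 fold change from −0.43 to 0.16. *Htr7* (chr19:35958734-36057507, reverse strand) had medians of 1.37 and 1.09 TPM and a log2 fold change of −0.53 with an interval from −1.18 to 0.13. Its highest value, 10.2 TPM, was in WT mouse 2, which had the lowest striatal marker sum of all mice, 276 TPM.

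**Figure D2:**
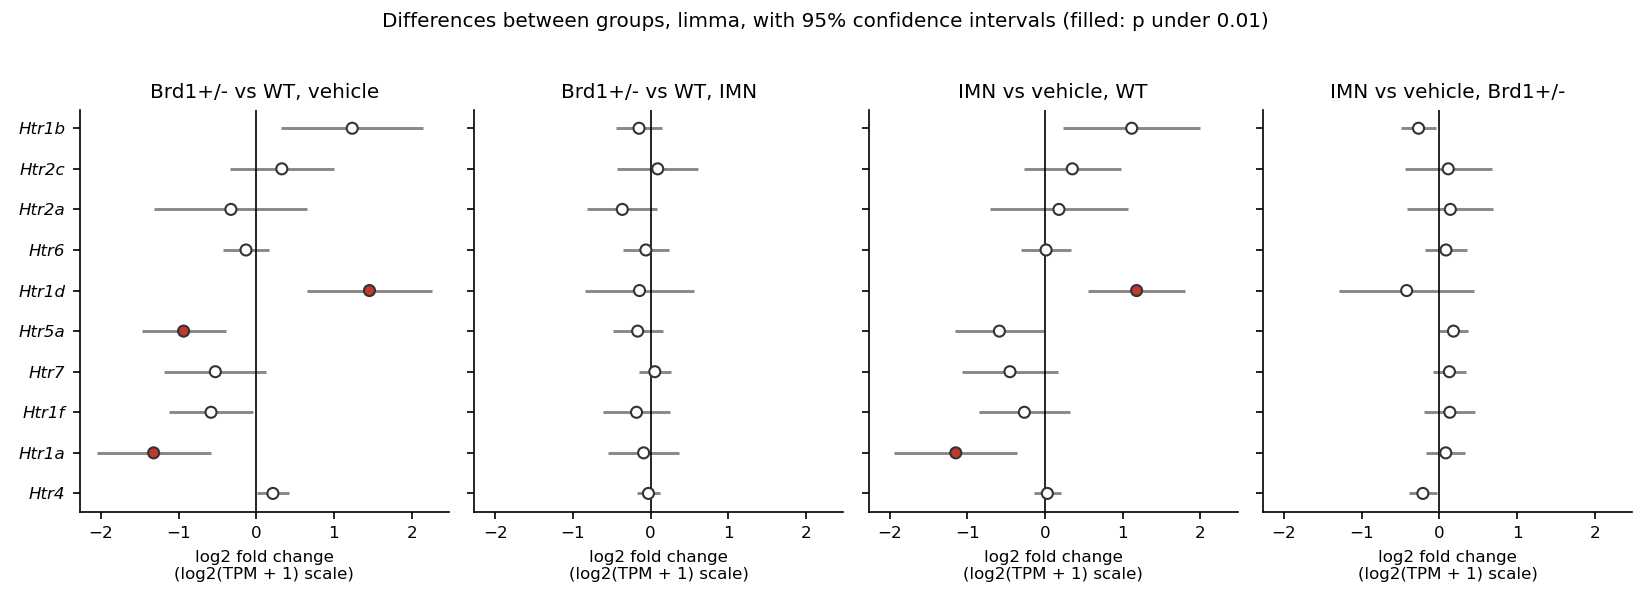
Log2 fold change of each gene, on the log2(TPM + 1) scale, in the 4 comparisons of 2 groups, with 95% confidence intervals from limma and filled points at a p under 0.01. The filled points are *Htr1a*, *Htr1d* and *Htr5a* between the vehicle groups and *Htr1a* and *Htr1d* between WT IMN and WT vehicle mice, and the other 2 panels hold none.

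**Figure D3:**
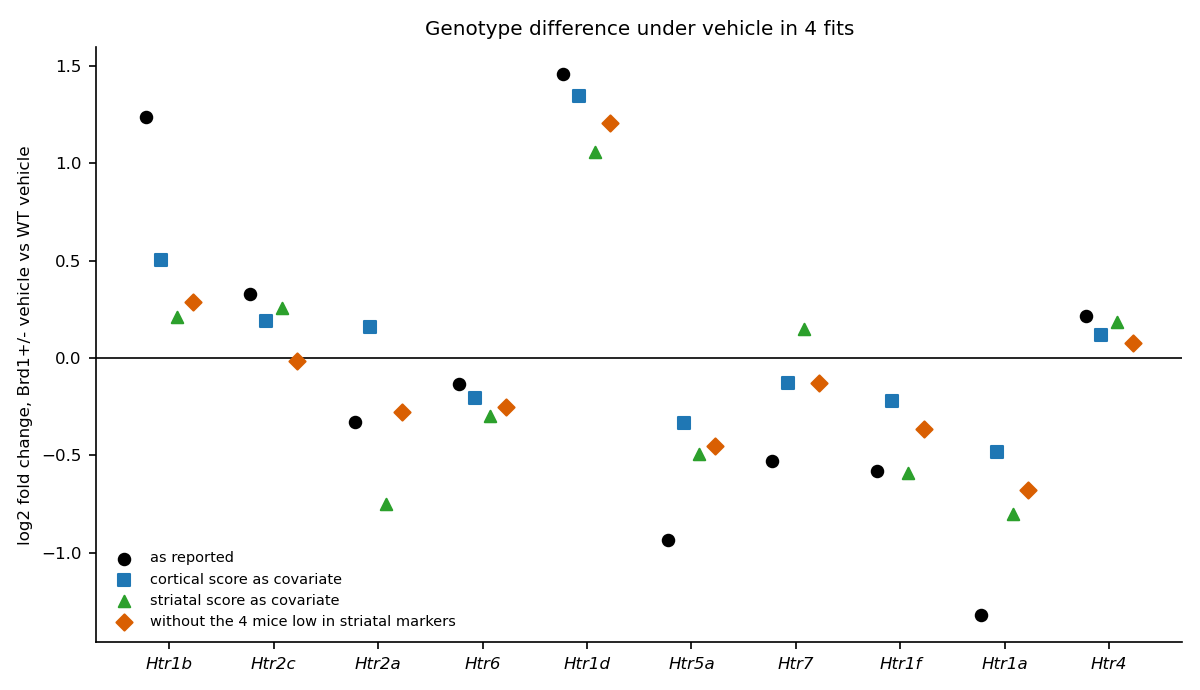
Log2 fold change between *Brd1*+/- and WT mice under vehicle in 4 fits, as reported, with the cortical or striatal marker score as a covariate, and without the 4 WT mice low in striatal markers. *Htr1d* lies between 1.06 and 1.46 and is called, of these 4 fits, only in the one as reported, and *Htr1a* goes from −1.32 to between −0.80 and −0.48 and is called in that fit and with the cortical score.

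Among genes that act with these receptors, 0 of the 7 tested genes of serotonin handling, 6 of 18 genes of G-proteins and their effectors, and 5 of 11 genes that regulate or edit the receptors were called between the vehicle groups, all 11 of them lower in *Brd1*+/- mice, as were 89.2% of all calls in this comparison (12.1% of all genes were called lower and 1.47% higher). With median-of-ratios scaling, where 56.4% of all calls were lower, 7 genes of the G-protein list were called and 4 of the regulator list. Of the 7, 2 were higher, *Gnal* at 1.25 and *Adcy3* at 0.47. With the cortical score these lists had 2 and 1 called genes, with the striatal score 1 and 2, and without the 4 mice low in striatal markers 0 and 0. Of all genes tested, 9.2% were called with median-of-ratios scaling, 1.88% with the cortical score, 1.48% with the striatal score and 0.934% without the 4 mice. *Gnas*, which codes for the Gs subunit, fell by 1.29 on the log2 scale, *Gnaz* by 0.55 and *Gnai1*, both of the Gi/o class, by 0.89 (adjusted p = 0.0556 each, limma). In the G-protein list 11 of the 18 genes were fitted lower and 7 higher. Among the latter, *Gnal* was at 1.06 (adjusted p = 0.0842, limma) and *Adcy5* at 1.36 (adjusted p = 0.0926, limma), and neither was called. *Gnas* was still called with the cortical score, at −0.75, and with the striatal score, at −1.01, and *Gnaz* with the cortical score, at −0.28. *Gnai1* was called with neither score, and without the 4 mice none of the 3 was, at −0.95 for *Gnas*, −0.31 for *Gnaz* and −0.50 for *Gnai1*. *Grk6* (a receptor kinase) fell by 0.35, *S100a10* (p11, a partner of 5-HT1B) by 0.84 and *Mpdz* (a scaffold that binds 5-HT2C) by 0.65 (adjusted p = 0.0556 each, limma), and of these *Grk6* at −0.31 and *S100a10* at −0.40 were still called with the striatal score. With the cortical score none of the 3 was called, at −0.24 for *Grk6*, −0.58 for *S100a10* and −0.32 for *Mpdz*. Nor was any without the 4 mice, at −0.27, −0.40 and −0.37 in the same order. *Htr3a*, which is expressed by cortical interneurons, was called too, at a log2 fold change of −0.88, with a mean of 2.30 TPM (SD 1.29) in WT against 0.710 TPM (SD 0.306) in *Brd1*+/- mice. It was still called at −0.76 with median-of-ratios scaling and at −0.46 with the striatal score, and was not called at −0.57 with the cortical score or at −0.43 without the 4 mice.

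Under IMN the comparison of genotypes gave another picture. None of the 10 genes was called between *Brd1*+/- and WT mice (0.703% of 23339 genes tested were), and none had a p under 0.05 in limma (3.92% of all genes did) or a p under 0.01 in the exact permutation test. The median of *Htr1d* was 5.64 TPM in WT and 6.25 TPM in *Brd1*+/- mice, and the range from 0.834 to 10.1 TPM in *Brd1*+/- mice held the whole range of WT mice, from 2.74 to 8.67 TPM. *Htr5a* had medians of 3.06 and 2.67 TPM. *Htr1b* had medians of 46.0 and 39.5 TPM. The largest fitted difference in either direction was that of *Htr2a*, −0.36 (95% interval from −0.82 to 0.09, adjusted p = 0.998, limma), with medians of 11.5 TPM in WT and 10.3 TPM in *Brd1*+/- mice. The 95% interval for *Htr1d* ran from −0.84 to 0.56 and that for *Htr2c* from −0.43 to 0.61.

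*Htr2c* varied through 2 mice. In *Brd1*+/- IMN mice it was at 19.99, 20.5, 57.8, 14.5, 17.5, 40.5, 14.1 and 21.4 TPM in mice 1 to 8. Mice 3 and 6 were thus above every WT IMN mouse (14.5 to 30.7 TPM). They also had the lowest striatal sums of their group, 7154 and 6776 TPM, and the highest sums of 8 choroid plexus markers, 16.1 and 13.1 TPM, against 4.85 to 11.6 TPM in the other 6 mice. In other groups the 2 did not go together throughout. *Brd1*+/- vehicle mouse 6 had the highest choroid plexus sum of all mice, 30.1 TPM, with *Htr2c* at 19.0 TPM. WT vehicle mouse 2 had the lowest sum, 2.15 TPM, with the highest *Htr2c* of its group, 29.0 TPM. Choroid plexus epithelium is known for very high *Htr2c*. Of the 8 markers summed, *Ttr* was listed at 0 in 5 and *Folr1* in all 8 of the *Brd1*+/- IMN mice. The highest values in that group were 11.0 TPM for *Clic6*, 6.17 TPM for *Ttr* and 4.53 TPM for *Kl*. The other markers stayed at 0.567 TPM or less there. The part of choroid plexus in these values was not tested. *Htr2c* also hosts small RNA genes in its introns, none of which overlaps an exon.

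The comparison of IMN with vehicle asks how the drug and the receptor genes go together within a genotype. In WT mice, *Htr1d* was higher and *Htr1a* lower after IMN, 2 of the 10 genes, where 6.95% of 23579 genes tested were called (1.35% higher and 5.6% lower). Neither passed an FDR of 5%, which 0.00424% of all genes did (adjusted p = 0.141 for both, limma), and 4 of the 10 had a p under 0.05 (23.1% of all genes). These WT vehicle mice are the ones that the genotype comparison under vehicle used, so the values of both comparisons rest on the same mice. *Htr1d* had a median of 1.56 TPM in WT vehicle and 5.64 TPM in WT IMN mice, 5 of the latter lying above all WT vehicle mice. Of the other lists, *Gnas* and *Gnaz* were called, both lower after IMN, and neither was called with a marker score or without the 4 mice. Without the 4 mice *Tph2* alone was called among these lists, lower after IMN (1 of 7 genes of serotonin handling, where 1.077% of all genes were called). For *Htr1d* the log2 fold change was 1.18 (SE 0.30, limma), with an exact permutation p of 0.00295. It was called at 1.09 with the cortical score and at 0.93 without the 4 mice low in striatal markers, and was not called at 0.83 with the striatal score.

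*Htr1a* after IMN in WT mice ranged from 0.382 to 2.89 TPM (median 0.499), with 6 of 8 values under 1 TPM and WT IMN mice 5 and 8 at 2.89 and 2.34 TPM. Those 2 mice had the highest cortical sums of their group, 1067 and 437 TPM, against 177 TPM or less in the others. The log2 fold change was −1.15 (SE 0.38, adjusted p = 0.141, limma). The call was lost when any of 12 single mice was left out, at values between −1.15 and −1.03. It was −0.32 with the cortical score, −0.64 with the striatal score and −0.50 without the 4 mice, and was called in none of these fits. *Htr1b* and *Htr5a* did not pass the threshold, at 1.12 (adjusted p = 0.155, limma) and −0.59 (adjusted p = 0.208, limma). Both were smaller without the 4 mice, at 0.17 and −0.10. For *Htr1f*, *Htr2a*, *Htr2c*, *Htr4*, *Htr6* and *Htr7* the log2 fold changes were −0.27, 0.18, 0.35, 0.03, 0.01 and −0.45, none beyond the spread between mice.

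In *Brd1*+/- mice, IMN went with no called difference in the 10 genes (1.83% of 23020 genes tested were called). Of the 10, 2 genes (*Htr1b* and *Htr4*) had a p under 0.05 in limma (7.09% of all genes did), and none had a p under 0.01 in the exact permutation test. *Htr1b* ranged from 30.5 to 53.9 TPM (median 39.5) after IMN and from 43.0 to 56.7 TPM (median 46.4) after vehicle, and 5 IMN mice were below all vehicle mice. Its log2 fold change was −0.27 (SE 0.10, adjusted p = 0.625, limma). *Htr4* had medians of 0.363 TPM after IMN and 0.673 TPM after vehicle, a log2 fold change of −0.21 (SE 0.09, adjusted p = 0.646, limma). Without *Brd1*+/- IMN mouse 6, which had the highest *Htr4* of its group (0.845 TPM), both genes passed the threshold, *Htr1b* at −0.33 and *Htr4* at −0.26. *Htr5a* was at 2.51 to 3.94 TPM (median 2.67) after IMN, and 6 of 7 vehicle mice were below all IMN mice (log2 fold change 0.18, adjusted p = 0.716, limma, with an exact permutation p of 0.0112).

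*Htr1a* in *Brd1*+/- mice after IMN fell outside the values after vehicle on both sides. IMN mice 2, 3, 4, 6 and 7, at 0.949 to 1.27 TPM, lay above all vehicle mice, and mice 1, 5 and 8, at 0.415, 0.399 and 0.371 TPM, lay below them. The means were 0.809 TPM after IMN and 0.684 TPM after vehicle. On the log2(TPM + 1) scale the means did not differ beyond the spread between mice (exact permutation test, p = 0.504). Of serotonin handling genes, *Ddc* was called, higher by 0.61 on the log2 scale after IMN (adjusted p = 0.437, limma), and no gene of the G-protein and regulator lists was.

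The interaction tests whether the difference between IMN and vehicle mice was itself different between the genotypes. Of the 10 genes, 3 were called, *Htr1a*, *Htr1b* and *Htr1d*, where 3.74% of 25394 genes tested were (2.97% higher and 0.78% lower), and none passed an FDR of 5% (adjusted p = 0.261 for each, limma). At a p under 0.05 there were 5 of the 10 genes, and 16.2% of all genes. The difference for *Htr1d* was −1.60 (95% interval from −2.67 to −0.53). For *Htr1b* it was −1.38 (interval from −2.33 to −0.44). For *Htr1a* it was 1.23 (interval from 0.37 to 2.09). Of the other lists, *Gnas* and *Adcy2* (a cAMP-forming enzyme) of the G-protein list, *Grk6* and the low *Htr5b* were called, at adjusted p = 0.261 each (limma). Of these, *Gnas*, *Adcy2* and *Htr5b* were called with median-of-ratios scaling, *Gnas* alone with the cortical score, and none with the striatal score or without the 4 mice. *Htr5a*, at 0.77, and *Htr4*, at −0.24, were not called. Without the 4 WT vehicle mice low in striatal markers, none of the 10 was called (0.544% of all genes were), with *Htr1d* at −1.35, *Htr1b* at −0.44 and *Htr1a* at 0.59. With the cortical score (0.906% of all genes called) *Htr1a* was still called at 0.51, whereas *Htr1d* at −1.40 and *Htr1b* at −0.83 were not. With the striatal score (0.52% of all genes called) none was called, at −1.18 for *Htr1d*, −0.37 for *Htr1b* and 0.64 for *Htr1a*.

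Several receptor genes went with the marker scores over the mice pooled from groups. Because WT vehicle mice stood apart, the relation was computed over the 23 mice outside that group and, beside it, over all 31 mice, for 10 genes and 2 scores (20 relations, permutation tests with 100000 resamples, Benjamini-Hochberg adjustment over the 20). *Htr1a* rose with the cortical score over 23 mice by r (0.84, p = 1e-05, the smallest these permutations can give, adjusted p = 0.0001). It did so by rank as well (rho = 0.76, adjusted p = 0.0008), and over all 31 mice (r = 0.93, rho = 0.87). *Htr5a* had r = 0.66 over the 23 mice (adjusted permutation p = 0.00256) and rho = 0.43, which did not pass (adjusted permutation p = 0.075), and r = 0.90 and rho = 0.75 over all mice, which passed. *Htr7* rose with it over 23 mice by both measures (r = 0.60, adjusted p = 0.006, rho = 0.55, adjusted p = 0.0198), and *Htr1f* by r (0.58, adjusted p = 0.00726) and not by rank (rho = 0.46, adjusted p = 0.0588). *Htr1b* fell with it by both measures (r = −0.61, adjusted p = 0.00535, rho = −0.58, adjusted p = 0.0158). *Htr1d* had r = −0.27 (p = 0.211 by permutation) and rho = −0.22 (p = 0.308 by permutation) over the 23 mice, and neither passed. Over all 31 mice r was −0.45 (adjusted p = 0.0213 by permutation), which passed, and rho was −0.33 (adjusted p = 0.0871 by permutation), which did not. With the striatal score its r was 0.27 over the 23 mice and 0.57 over all 31 (adjusted p = 0.00076 by permutation), with rho at 0.39 over all 31 (adjusted p = 0.0423 by permutation). Within the groups, 4 of the 20 relations passed in WT vehicle, 1 in *Brd1*+/- vehicle, 13 in WT IMN and 2 in *Brd1*+/- IMN mice by r (permutation tests). By rank these counts were 5, 2, 0 and 2, so the 13 in WT IMN mice, where mice 5 and 8 had the highest cortical sums, did not hold by rank (smallest adjusted permutation p of rho 0.147). Relations of all 25394 genes tested with the same scores reached the smallest size of r that passed in 4.09%, 0.348%, 12.1% and 3.76% of cases in the 4 groups, against 4, 1, 13 and 4 of the 20. Over the 23 mice they did so in 13.8% of cases (12 of the 20), and over all 31 in 40.5% (13 of the 20). By rank, the smallest size of rho that passed was reached in 6.98% of cases in WT vehicle mice (5 of the 20). The share was 0.313% in *Brd1*+/- vehicle (2 of the 20) and 0.34% in *Brd1*+/- IMN mice (2 of the 20). Over the 23 mice it was 5.68% (7 of the 20), and over all 31 it was 38.1% (15 of the 20). For *Htr1a*, r with the cortical score was 0.99 in WT vehicle, 0.92 in *Brd1*+/- vehicle, 0.96 in WT IMN and 0.63 in *Brd1*+/- IMN mice, and did not pass in the last. For *Htr5a* it was 0.99, 0.61, 0.91 and 0.41, and for *Htr1b* −0.70, −0.11, −0.82 and −0.59.

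With the striatal score, *Htr1b* rose over all 31 mice (r = 0.95, rho = 0.64), and over the 23 mice r was 0.49 (adjusted p = 0.0319) and rho was 0.34, which did not pass (adjusted p = 0.145). *Htr2a* showed r = 0.16 and rho = −0.65 over all mice (adjusted permutation p of 0.368 for r and 0.00027 for rho), and r = −0.74 and rho = −0.69 over the 23 (0.00015 for r and 0.00273 for rho), so that the rank value was negative in both. In WT vehicle mouse 2, lowest in the striatal score, *Htr2a* was at 1.55 TPM, the lowest of all mice. Leaving out the 2 mice farthest from the median of the striatal score, WT vehicle mice 1 and 2, gave r = −0.72 for *Htr2a*, 0.86 for *Htr1b* and −0.91 for *Htr1a*. Leaving out WT vehicle mice 2 and 4, the farthest in the cortical score, gave r = 0.92 for *Htr1a*, 0.87 for *Htr5a* and −0.38 for *Htr1d*. Within WT vehicle, *Brd1*+/- vehicle, WT IMN and *Brd1*+/- IMN mice, in this order, r with the striatal score was −0.62, −0.72, −0.92 and −0.88 for *Htr1a*, and −0.73, −0.68, −0.92 and 0.04 for *Htr5a*. For *Htr1b* it was 0.97 and 0.85 in the WT groups under vehicle and IMN, and −0.35 and −0.20 in the *Brd1*+/- groups. *Htr2c*, *Htr4* and *Htr6* had r between −0.43 and 0.32 with either score over the 23 mice.

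**Figure D4:**
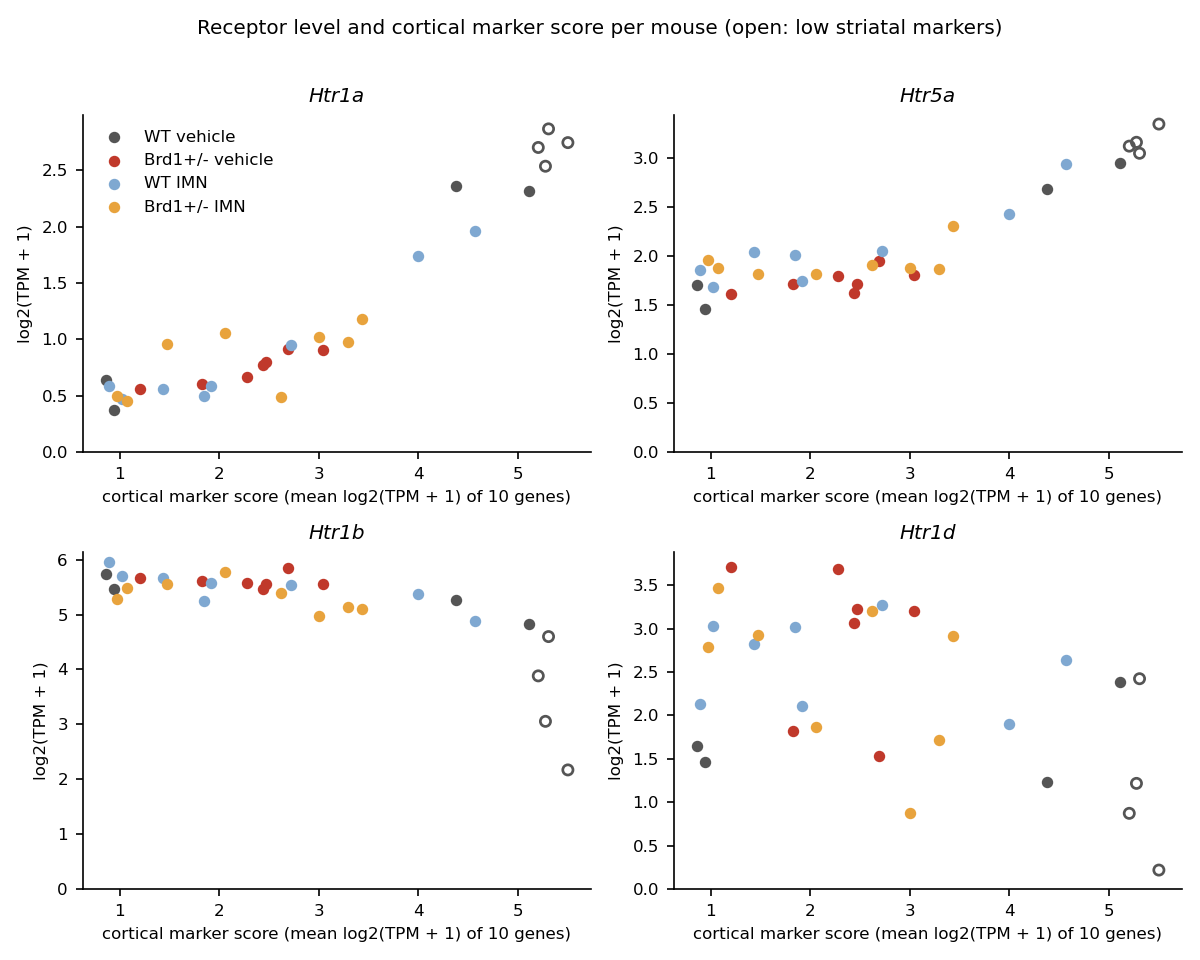
Log2(TPM + 1) of *Htr1a*, *Htr5a*, *Htr1b* and *Htr1d* against the cortical marker score of the same mouse, by group, with open points for the 4 mice low in striatal markers. *Htr1a* and *Htr5a* rise with the score (r = 0.84 and 0.66 over the 23 mice outside WT vehicle), *Htr1b* falls (r = −0.61), and *Htr1d* has r = −0.27 over those 23 mice and −0.45 over all 31.

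The receptor genes also moved with each other. Over the 23 mice outside the WT vehicle group, the closest pairs were *Htr1a* with *Htr5a* (r = 0.78) and with *Htr1f* (r = 0.78), *Htr1f* with *Htr2a* (r = 0.71) and *Htr1b* with *Htr4* (r = 0.71). *Htr1b* and *Htr5a* moved in opposite directions (r = −0.58). *Htr1d* had no partner among the 10 beyond r = −0.37 (with *Htr2a*). Cortical marker sums differed between these mice, from 11.0 to 1067 TPM, and the values are given as a description only.

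Among 17391 genes with a mean of at least 1 TPM, those most like *Htr1b* over the 31 mice were *Pde7b*, *Klhl13* and *Pbx3* (r = 0.99, 0.98 and 0.98, and 0.87, 0.79 and 0.80 over the 23 mice outside WT vehicle). For *Htr5a* they were *Mtfp1*, *Sphkap* and *Map4k3* (r = 0.96 each, and 0.86, 0.86 and 0.85 over the 23). *Htr1f* was nearest to *D930048N14Rik*, *Tenm1* and *Xkr7* (r = 0.91, 0.90 and 0.88), *Htr2a* to *Col25a1*, *B230219D22Rik* and *Tenm1* (r = 0.87, 0.85 and 0.85) and *Htr2c* to *Hrasls*, *Klf5* and *Cpne8* (r = 0.85, 0.83 and 0.82). The nearest genes of *Htr6* were *Crym*, *Taf4* and *Xxylt1*, at r = 0.69, 0.68 and 0.67. *Htr1d* had no gene closer than r = 0.66 (*Aff3*, *Nedd4l* and *Gm10222*), and over the 23 mice these fell to 0.45, 0.46 and 0.36. *Htr7* was nearest to *C1ql2*, *Igfn1* and *Pcdha3* (r = 0.92, 0.90 and 0.89), whose r fell to 0.39, 0.56 and 0.32 without the WT vehicle group, which holds the mouse with its highest level.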

How the data were processed

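RNA from 1 mm punches of right CPu of 31 mice was sequenced, and the authors deposited 1 table of TPM values for 52636 Ensembl genes. Per the labels and the submitters' processing notes, reads were aligned to GRCm38 with HISAT2 2.1.0 and assembled with StringTie 1.3.4, with FastQC and Trimmomatic also named. Whether the libraries kept strand is not given in the sources used here. The TPM values of a mouse sum to between 999787 and 999918, so they keep no depth, and no interval that needs read counts is given. No pair of mice held identical values. Each mouse is 1 replicate.

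GENCODE M21 (GRCm38) gave symbols for 52403 genes. The 10 receptor genes, the other lists and the tests were chosen with earlier results of these data known. Genes over 0.1 TPM in at least 7 mice of a comparison were tested on log2(TPM + 1) with limma 3.58.1 (R 4.3.3, empirical Bayes with a mean trend), with each pair of groups fitted alone and the interaction over all 4 groups. Fold changes on this scale understate the change of low genes. A gene was called at a two-sided p under 0.01, and Benjamini-Hochberg adjusted p-values over all genes tested are given beside it. Each receptor gene was also tested by an exact two-sided permutation of mice (40 tests). Other computations used numpy 2.4.6, pandas 2.3.3 and scipy 1.17.1. The limma code was tested on simulated data. All 10 receptor genes are described, genes of the other lists are named for the smallest p, and the 3 genes most like each receptor gene are named by Pearson's r where its median is at least 1 TPM. Alternatives were another pseudocount, filters, median-of-ratios scaling, a replicate block, all groups in 1 fit, sample weights, marker scores as covariates and leaving out mice.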

Additional observations from a re-analysis of the deposited data

Results flagged for a closer look

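In 5 of the 40 sets of values (10 genes in 4 groups), 1 mouse stood far from the others by Dixon's test at 95%, where chance gives about 1 in 20 sets. *Htr2c* was at 37.3 TPM in *Brd1*+/- vehicle mouse 3, with 22.3 TPM in the next highest mouse. *Htr7* was at 10.2 TPM in WT vehicle mouse 2, with 2.19 TPM in the next. In *Brd1*+/- IMN mice, *Htr4* was at 0.845 TPM in mouse 6 (next 0.492 TPM) and *Htr5a* at 3.94 TPM in mouse 4 (next 2.89 TPM). *Htr7* was lowest there in mouse 8, at 0.702 TPM, with 1.09 TPM in the next lowest.

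The difference between IMN and vehicle mice itself differed between the genotypes at a p under 0.01 (limma interaction) for 3 genes. As the value in *Brd1*+/- minus that in WT mice, it was 1.23 for *Htr1a*, −1.38 for *Htr1b* and −1.60 for *Htr1d* on the log2 scale, with an adjusted p of 0.261 each. Marker scores moved with these groups, as given above.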

How the results depend on the processing

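Of the 10 receptor genes, 3 were called between the vehicle groups, 5 with sample weights (26.5% of all genes), 0 with the striatal score (1.48%) and 0 without the 4 mice low in striatal markers (0.934%). For IMN in WT, 2 became 1 with a pseudocount of 0.1 (6.65%), the cortical score (1.33%) or without the 4 mice (1.077%), 0 with the striatal score (1.28%), and 4 with all groups in 1 fit (14.4%) or sample weights (20.3%). For the interaction, 3 became 1 with the cortical score (0.906%), 0 with the striatal score (0.52%) and 0 without the 4 mice (0.544%). The cause was not tested. Leaving out 1 mouse gave 1 to 4 calls for IMN in WT (4 without WT vehicle mouse 8, with 15.3% of all genes, over fits that called 3.88% to 15.3%) and 1 to 4 for the interaction (1 without WT vehicle mouse 1, with 2.16%, or *Brd1*+/- vehicle mouse 1, with 2.5%, over fits that called 2.16% to 10.2%). It gave 0 to 2 for IMN in *Brd1*+/- mice (1 without *Brd1*+/- vehicle mouse 6, with 1.74%, 2 without *Brd1*+/- IMN mouse 6, with 2.18%, over fits that called 1.34% to 2.18%). Between the vehicle groups it gave 3 to 4, over fits that called 8.89% to 22.4% of all genes. Between the IMN groups it gave 0, over fits that called 0.55% to 1.09%.

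Correlations of same-numbered mice take in every difference between mice, so they cannot decide whether the mouse numbers pair mice across groups. In their deviations from group means, same-numbered mice had r from −0.413 to 0.433 for IMN in WT, where 2 of 8 pairs were over 0.1. For IMN in *Brd1*+/- mice it was from −0.078 to 0.227, with 3 of 7 pairs over 0.1 and 3 mice closest to their own number. Between genotypes 0 of 7 pairs under vehicle and 2 of 8 under IMN were over 0.1. With the replicate block, 1 receptor gene was called for IMN in WT (5.08% of all genes) and 4 between the vehicle groups (17.7%).

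Directions turned only for genes that were not called. Between the vehicle groups, *Htr2a* was at 0.16 with the cortical score, *Htr2c* at −0.017 without the 4 mice, *Htr6* at 0.037 with median-of-ratios scaling and *Htr7* at 0.15 with the striatal score. *Htr2c* under IMN was at −0.067 with sample weights and between −0.094 and 0.19 with 1 mouse left out. For IMN in WT, *Htr1f* was at 0.16 with the cortical score, *Htr7* at 0.15 with the striatal score, and *Htr2a* at −0.37 with sample weights, −0.16 with the striatal score and between −0.14 and 0.36 with 1 mouse left out. *Htr4* was at −0.054 with the cortical score, −0.0047 with the striatal score, −0.10 without the 4 mice and between −0.0099 and 0.072 with 1 mouse left out. *Htr6* was at −0.12, −0.15 and −0.11 in the same 3 fits and between −0.067 and 0.080.

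Of 9 neighbour pairs in the order of levels, 6 were separated over all mice, 8 without the 4 mice, 0 within WT vehicle, 4 within *Brd1*+/- vehicle, 3 within WT IMN and 3 within *Brd1*+/- IMN mice. Of 20 relations with the marker scores, 13 passed over all mice, 4 within WT vehicle, 1 within *Brd1*+/- vehicle, 13 within WT IMN and 2 within *Brd1*+/- IMN mice, and by rank 15, 5, 2, 0 and 2 in the same order. Over all mice, 40.5% of the relations of all genes reached the smallest size of r that passed, and 38.1% that of rho. The shares within the groups are given above. Exact tests under 0.01 went from 3 to 0 without the 4 mice, an alternative chosen after seeing the data, as were those for the other gene lists.

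Across all genes, median-of-ratios scaling took the calls between the vehicle groups from 3153 (89.2% lower) to 2134 (56.4% lower), those for IMN in WT from 1639 (80.6% lower) to 1410 (52.0% lower) and those of the interaction from 951 (20.8% lower) to 806 (48.9% lower). Without the 4 mice they were 205, 241 and 135. An FDR of 5% was passed by 3 receptor genes for IMN in WT with all groups in 1 fit (10.2% of all genes) and by 4 with sample weights (20.6%), and by 3 for the interaction with sample weights (10.3%). TPM keeps no depth, so the counting error of low genes such as *Htr4* is unknown.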
